A study of Mus musculus with 4 samples.

Results

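The Hox cluster genes are the rows of an RNA sequencing (RNA-seq) table whose symbol is Hoxa, Hoxb, Hoxc or Hoxd followed by a number, 38 of 21090 genes. The Hoxa cluster gave 11 of them, Hoxb 10, Hoxc 9 and Hoxd 8, and Hoxd4 was not analysed here. The table covers 4 lines of mouse mammary tumor cells, each with 1 library. All 4 lines share activated Pik3ca and mutant Trp53 alleles switched on by Cre recombinase under the MMTV promoter, which is active in mammary epithelium, and trace to a primary tumor that had spread to the lung. The 2 controls are the parental line and a line with the vector control, and the 2 knockouts carry Cas9 with a guide RNA against exon 3 or against exon 2 of S100a4, a calcium-binding protein gene. The titles call the cells 307 in the parental, vector control and exon 3 knockout libraries and 308 in the exon 2 knockout library, while the study describes only a single line from which the others were made. The label 308 and the edit of exon 2 therefore fall on the same library and cannot be told apart. The knockout lines were selected with puromycin after lentiviral infection and are not described as clones, and nothing says that the 2 libraries of a group are replicate cultures, so every p-value below measures only the spread between these libraries. Where 4 values follow each other without names, their order is parental, vector control, exon 3 knockout, exon 2 knockout.

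Hox genes encode homeodomain transcription factors that set positional identity along the body axis and in limbs, gut and genital tract. They lie in 4 clusters, and genes at the same place in different clusters are paralogs that descend from a shared ancestor gene and are numbered as paralog groups from 1, at the 3′ end, to 13, at the 5′ end. In the embryo the 3′ genes are used early and towards the head and the 5′ genes later and towards the tail. Adult cells often keep the set of active Hox genes of the place they came from, held by Polycomb (repressing) and Trithorax (activating) chromatin proteins. In the mammary gland, Hoxc6 and Hoxc8 are known from the embryonic mammary region, and Hoxa9, Hoxb9 and Hoxd9 together from gland growth in pregnancy.

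Promoter sequences are shown for 4 genes so that an active and a silent paralog can be read side by side, since the results turn on whole clusters being silent. Each is the 250 bases before an annotated start (RefSeq, GRCm38.p6), written 5′ to 3′ on the strand of the gene with every CpG in capitals. Hoxa10 (chr6:52234940-52235189, minus strand) and Hoxd10 (chr2:74691641-74691890, plus strand) are paralogs of group 10, the first active in all 4 lines and the second without a read in any. Hoxb8 (chr11:96281655-96281904, plus strand) and Hoxd8 (chr2:74704365-74704614, plus strand) belong to group 8, and Hoxb8 is a gene whose level crossed the threshold for activity between lines.
Hoxa10: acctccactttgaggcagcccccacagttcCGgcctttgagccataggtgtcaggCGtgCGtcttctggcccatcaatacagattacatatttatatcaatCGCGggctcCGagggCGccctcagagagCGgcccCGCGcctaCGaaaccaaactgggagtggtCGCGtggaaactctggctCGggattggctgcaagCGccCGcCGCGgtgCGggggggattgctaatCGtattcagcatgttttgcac
Hoxd10: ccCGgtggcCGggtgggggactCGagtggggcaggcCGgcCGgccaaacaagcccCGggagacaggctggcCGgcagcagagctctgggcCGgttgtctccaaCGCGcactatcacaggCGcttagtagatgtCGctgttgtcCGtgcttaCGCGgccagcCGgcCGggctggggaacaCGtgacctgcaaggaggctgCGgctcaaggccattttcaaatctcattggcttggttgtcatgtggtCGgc
Hoxb8: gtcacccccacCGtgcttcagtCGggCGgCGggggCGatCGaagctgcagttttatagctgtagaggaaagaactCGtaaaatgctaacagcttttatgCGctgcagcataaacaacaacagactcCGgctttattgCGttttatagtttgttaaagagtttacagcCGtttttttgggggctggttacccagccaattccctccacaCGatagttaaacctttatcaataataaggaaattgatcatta
Hoxd8: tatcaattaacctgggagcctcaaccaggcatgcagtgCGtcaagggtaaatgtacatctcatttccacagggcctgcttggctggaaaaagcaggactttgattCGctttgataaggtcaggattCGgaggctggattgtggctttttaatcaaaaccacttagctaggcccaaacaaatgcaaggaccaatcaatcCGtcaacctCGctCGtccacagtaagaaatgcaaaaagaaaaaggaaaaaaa

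The Hoxa10 and Hoxd10 windows shown held the same number of CpG sites, 20 each, a count reached or undercut by 83.7% of the 32851 windows in the RefSeq table. Another Hoxa10 window in that table held 7, and RPKM per gene does not show which start was used. The Hoxb8 window held 12 CpG sites and the Hoxd8 window 6. Over the 21 Hox genes with a window, the median CpG count was 13.5 in the 12 windows of genes at or above RPKM of 1 in some line (range 3 to 35) and 12 in the 11 windows of the others (range 2 to 31), beside 6 in all windows. A further search covered 3 short motifs on both strands, a composite site for PBX and HOX proteins (TGATNNAT), a TATA box (TATAAA) and a CCAAT box (CCAAT). The PBX and HOX motif was found in 2 windows of active and 2 of silent Hox genes and in 7.68% of all windows. TATAAA was found in 2 and 1 windows (12.4% of all) and CCAAT in 6 and 7 (33.9% of all). None of these features was tested between active and silent genes.

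S100a4, the edited gene, had RPKM of 3576, 4741, 1136 and 1105, lower in both knockouts. The totals behind the RPKM values were between 22472024 and 31235456 reads. Epithelial markers were mostly low, with 3 of 13 (Krt8, Krt18 and Gata3) at RPKM of 1 or more in some line and Epcam between 0.304 and 0.657. All 15 mesenchymal markers, S100a4 among them, reached RPKM of 1 in at least 1 line. Without S100a4 the other 14 had summed RPKM of 6113, 3380, 3221 and 3077, so that the parental line stood apart from the other lines, and the part of this in the Hox values was not tested. With S100a4, 14 mesenchymal markers had a mean RPKM of at least 1. Of these, 2 were at least 2-fold lower in the knockouts in every pair. Among all genes at that mean, 2.0% were so far apart in either direction. The 2 were S100a4 and Col3a1, a fibrillar collagen gene (133, 57.9, 15.2 and 23.9). Of 5 leukocyte markers only Cd68 reached RPKM of 1 (4.92, 3.36, 11.5 and 13.2), and Ptprc was at or near 0. Cd68 was at least 2-fold higher in the knockouts in every pair. The 4 endothelial markers stayed under 1 and the 3 adipocyte markers were listed at 0. In bulk RNA, fewer cells that use a gene and less RNA per cell cannot be told apart.

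A gene was called on in a line at RPKM (reads per kilobase of coding length, scaled to the library total) of at least 1, low above 0 and under 1, and otherwise listed at 0. By this rule 16, 18, 16 and 15 of the 38 Hox genes were on. Among all 21090 genes, the share on was 51.7%, 51.5%, 50.1% and 50.2%. All genes that were on belonged to Hoxa (10, 10, 9 and 10 of 11) and Hoxb (6, 8, 7 and 5 of 10). No gene of Hoxc or Hoxd was on in any line. In all, 12 genes were on in every line, 7 in some lines, 5 stayed above 0 but under 1 and 14 were listed at 0 in all 4.

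**Figure D1:**
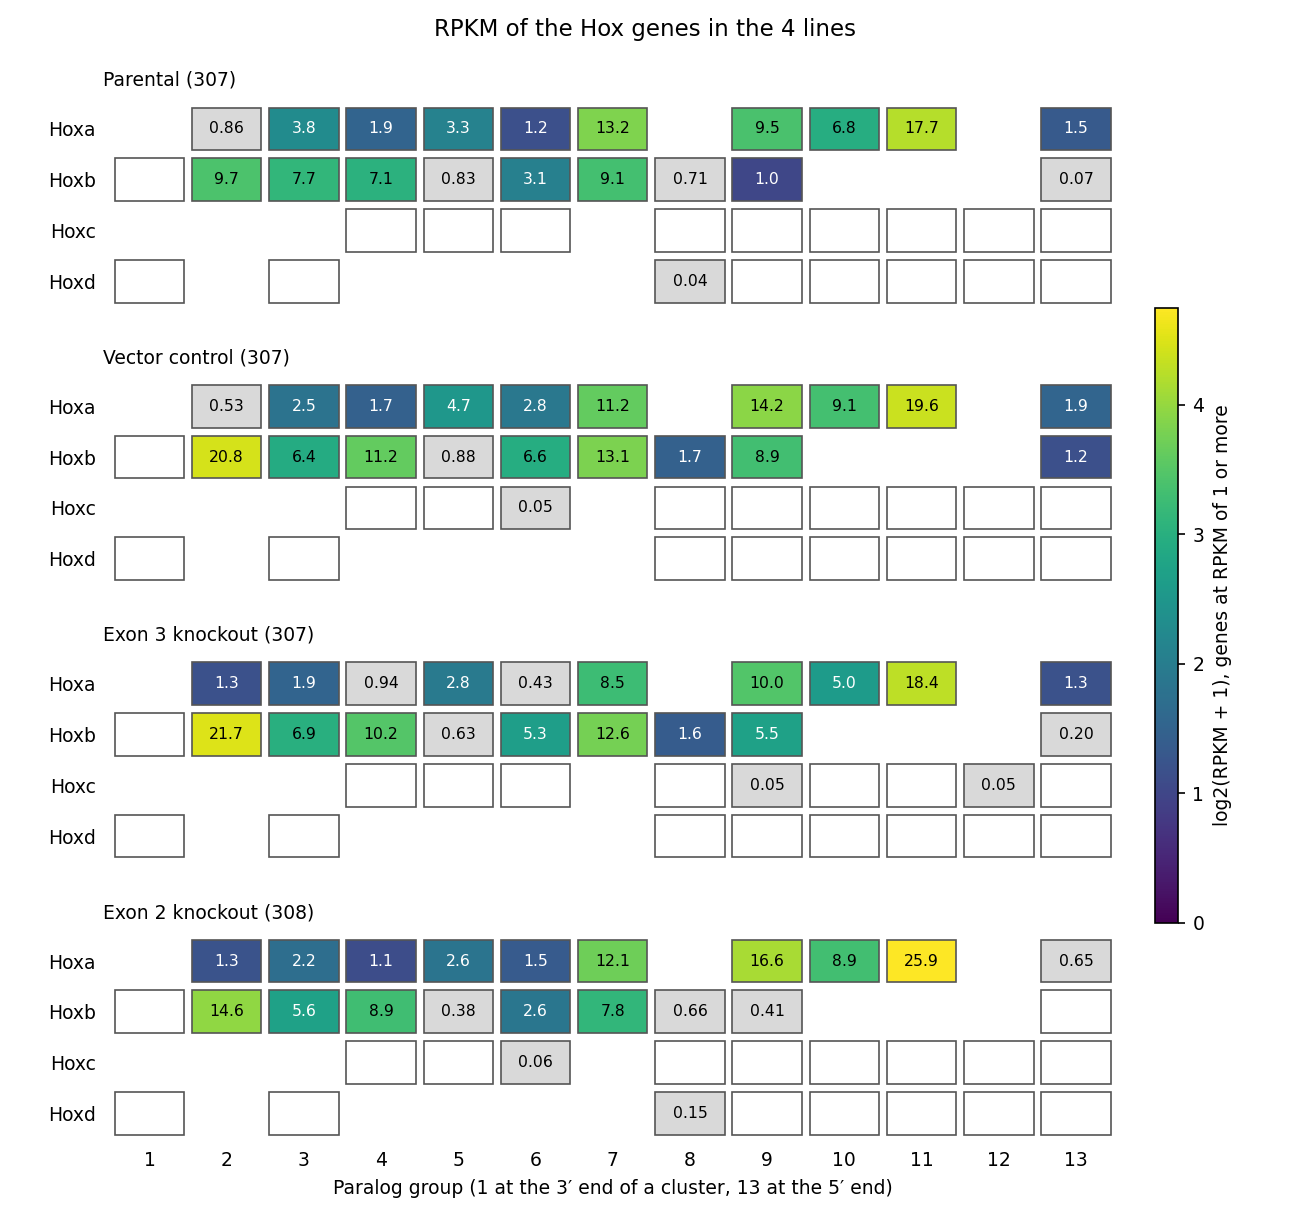
RPKM of 37 Hox genes by cluster (rows) and paralog group (columns) in each of the 4 lines. Coloured boxes are genes at RPKM of 1 or more, shaded by log2(RPKM + 1), grey boxes are genes above 0 and under 1, white boxes are genes listed at 0 and gaps are positions with no gene shown. Coloured boxes lie only in Hoxa and Hoxb, where some boxes were grey or white as well, while the 17 boxes of Hoxc and Hoxd stayed white or grey in every line.

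The Hoxc cluster (chromosome 15, 102921103 to 103036852, GRCm38) and the Hoxd cluster (chromosome 2, 74668310 to 74765142) received 8 reads in all 4 libraries together. Hoxd8 had 1 read in the parental line and 3 in the exon 2 knockout, and its RPKM of 0.153 in the latter was the highest of either cluster. Hoxc6 had 1 read in the vector control and 1 in the exon 2 knockout, and Hoxc9 and Hoxc12 had 1 read each in the exon 3 knockout. The silent set thus included Hoxc6 and Hoxc8, known from the mammary region, and Hoxd9. The genes listed at 0 in all 4 lines were Hoxb1, Hoxc4, Hoxc5, Hoxc8, Hoxc10, Hoxc11, Hoxc13, Hoxd1, Hoxd3, Hoxd9, Hoxd10, Hoxd11, Hoxd12 and Hoxd13. A count of 0 allows up to 3 reads, which is RPKM of 0.0703 to 0.200 over the 67 Hox values listed at 0, for counting error only.

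Of the listed neighbours of the silent clusters, the closest, the homeobox gene Evx2 at 8.8 kb from Hoxd, was listed at 0 throughout. Genes farther away were on in all 4 lines. On the Hoxd side these were Mtx2 at 60.7 kb (RPKM 46.7 to 59.7) and Lnp at 88.9 kb (4.57 to 11.4). On the Hoxc side they were Smug1 at 116.4 kb (6.21 to 10.2), Cbx5 at 154.7 kb (40.5 to 84.1) and Calcoco1 at 198.9 kb (34.6 to 48.1), all at more than the length of the Hoxc cluster (115.8 kb). Around the active clusters the pattern was mixed, with Skap2 at 143.0 kb from Hoxa on (24.9 to 35.9), Evx1 at 52.6 kb listed at 0, and Skap1 and Ttll6 at 96.3 and 28.9 kb from Hoxb under 1 in every line.

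Within Hoxa (chromosome 6, 52155590 to 52260880, minus strand), levels were highest towards the 5′ end. Groups 9 to 13 had summed RPKM of 35.5, 44.8, 34.7 and 52.1, against 9.02, 6.42, 6.20 and 6.10 for groups 1 to 4. Within Hoxb (chromosome 11, 96194316 to 96368256, plus strand), the order was the other way, with 24.5, 38.5, 38.8 and 29.1 for groups 1 to 4 and 1.09, 10.2, 5.74 and 0.414 for groups 9 to 13. Those 5′ groups hold 4 genes in Hoxa and 2 in Hoxb.

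The highest Hox gene on the RPKM scale was Hoxa11 in the parental and exon 2 knockout lines and Hoxb2 in the other pair. Hoxa11, a gene of limb and uterus patterning, had RPKM of 17.7, 19.6, 18.4 and 25.9. The 95% exact Poisson intervals of the first 3 overlapped, while that of the exon 2 knockout (23.8 to 28.2) lay above them. Hoxa9, best known from blood stem cells and leukemia, had 9.50, 14.2, 10.04 and 16.6. Hoxa10, which patterns the uterus, had 6.83, 9.06, 4.9998 and 8.89. The values of Hoxa9 and Hoxa10 were higher in the vector control and exon 2 knockout than in the other pair.

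Hoxa7 had RPKM of 13.2, 11.2, 8.52 and 12.1, lowest in the exon 3 knockout. Hoxa13, which patterns the digits and the genital tract, stood at 1.497, 1.88, 1.29 and 0.655 and was low only in the exon 2 knockout, where its interval (0.382 to 1.05) still reached 1. The middle of the cluster was weaker. Hoxa5, known from lung development, had 3.31, 4.75, 2.83 and 2.57, with both knockouts below both controls. Hoxa6 had 1.24, 2.76, 0.427 and 1.53 and dropped under 1 in the exon 3 knockout alone (7 reads, interval 0.172 to 0.879).

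Towards the 3′ end, Hoxa2, which patterns the second pharyngeal arch, had RPKM of 0.858, 0.528, 1.26 and 1.31 and was on in the knockouts only. Its intervals in the parental line (0.579 to 1.23) and in both knockouts reached across 1, so the state of Hoxa2 was not settled by these read numbers. Hoxa3, needed for the thymus and parathyroid glands, had 3.82, 2.51, 1.85 and 2.24, and Hoxa4 had 1.87, 1.74, 0.943 and 1.14. Both Hoxa3 and Hoxa4 were lower in each knockout than in each control. Hoxa3 spans its neighbours Hoxa4, Hoxa5 and Hoxa6 in the annotation, and whether the counting used strand or split shared exons is not stated, so levels of these overlapping genes are uncertain.

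In Hoxb, the 3′ genes were on everywhere except Hoxb1. Hoxb2, a hindbrain gene, had RPKM of 9.66, 20.8, 21.7 and 14.6, with the parental line lowest and the vector control and exon 3 knockout nearly alike. Hoxb3 had 7.72, 6.44, 6.94 and 5.61, a narrow range. Hoxb4, known for expanding blood stem cells, had 7.14, 11.2, 10.2 and 8.86. Hoxb5, known from lung and gut, stayed low at 0.830, 0.875, 0.631 and 0.385. Its intervals reached above 1 in every line except the exon 2 knockout (0.155 to 0.792). The antisense RNA Hoxb5os, which overlaps Hoxb5 and Hoxb6, had 2.31, 3.28, 3.45 and 1.503 and was the only one of 18 listed cluster RNAs with a row, and its reads and those of Hoxb5 may not be separated.

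Further towards the 5′ end, Hoxb6 had RPKM of 3.13, 6.65, 5.27 and 2.63, and Hoxb7, studied in breast cancer, had 9.11, 13.1, 12.6 and 7.76. Hoxb8 had 0.709, 1.74, 1.57 and 0.657 and was on in the vector control and exon 3 knockout only. Its intervals in the parental line (0.439 to 1.08) and in the exon 2 knockout (0.359 to 1.10) still reached above 1. In each of these 3 genes the vector control and exon 3 knockout were above the parental and exon 2 knockout lines.

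Hoxb9, a group 9 paralog with a role in the mammary gland, had RPKM of 1.02, 8.94, 5.54 and 0.414 from 24, 171, 98 and 7 reads. The ratio of the highest to the lowest was 21.6, the largest among the Hox genes above 0 in every line. The vector control exceeded the parental line 8.76-fold, although both are controls labelled 307. Hoxb13, a gene of the prostate and tail end, had 0.0744, 1.23, 0.198 and 0 from 2, 27, 4 and 0 reads. It was on in the vector control alone, where its interval (0.814 to 1.7965) reached below 1.

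**Figure D2:**
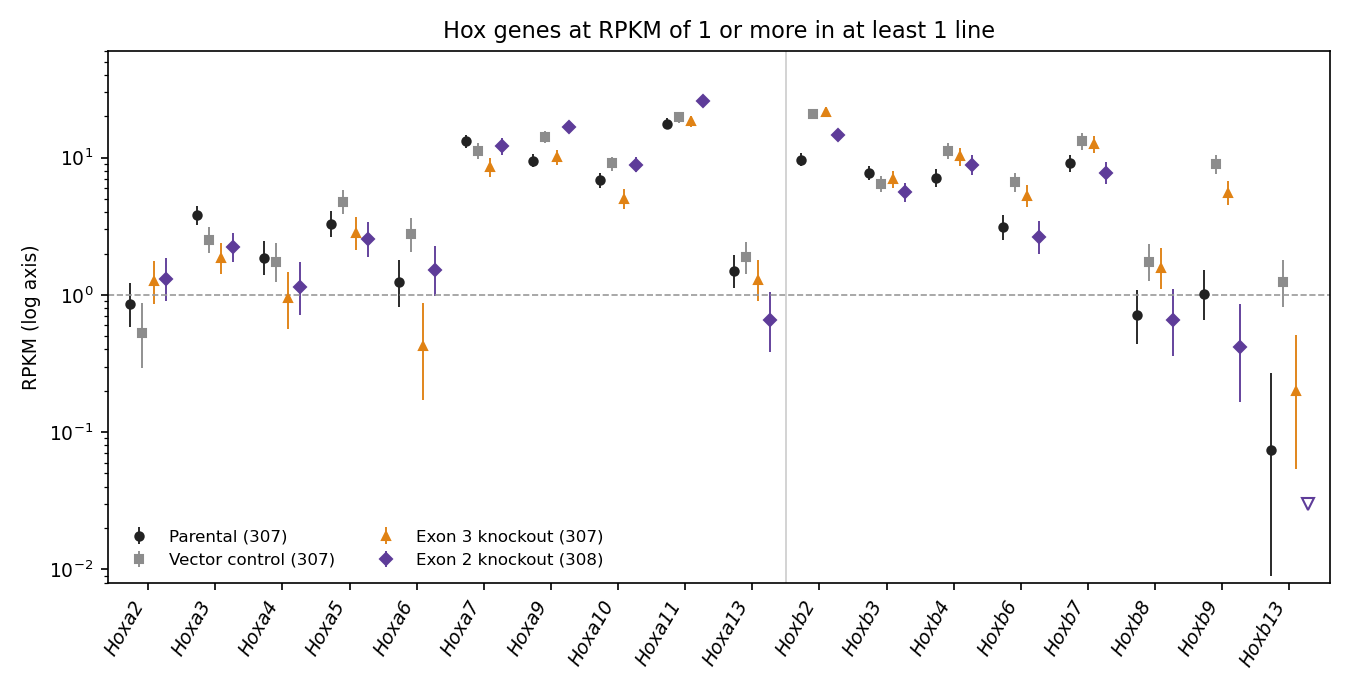
RPKM on a log axis of 18 Hox genes at RPKM of 1 or more (dashed line) in at least 1 line, with 1 point per line and 95% exact Poisson intervals of the reads as bars, which cover counting error only. The open triangle marks Hoxb13 in the exon 2 knockout, listed at 0 and drawn at an arbitrary low height. The points of a gene lie closest in Hoxb3 and Hoxa11 and spread most in Hoxb9 and Hoxb13.

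Summed over each cluster, Hoxa RPKM was 62.3, 69.9, 52.7 and 74.4 and Hoxb RPKM was 39.4, 71.0, 64.6 and 40.9. The ratio of Hoxb to Hoxa was 0.633 in the parental line and 0.550 in the exon 2 knockout, against 1.02 in the vector control and 1.23 in the exon 3 knockout. The 2 libraries of each group thus lay on different sides of this divide, and so did the libraries labelled 307.

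**Figure D3:**
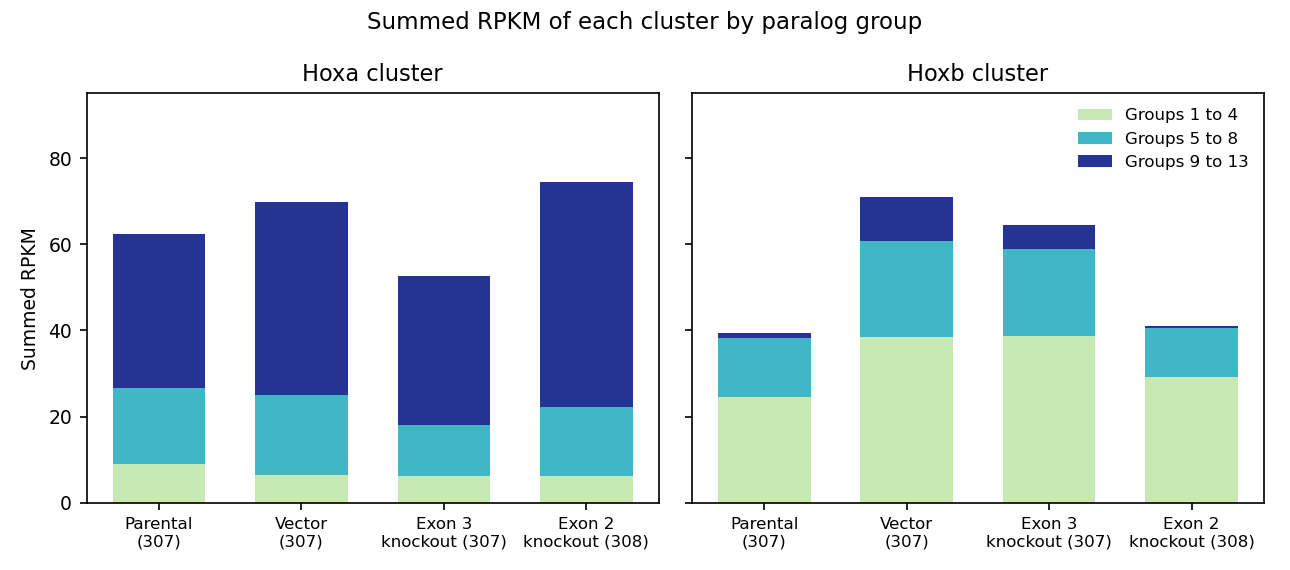
Summed RPKM of the Hoxa cluster (left) and the Hoxb cluster (right) in each line, stacked by paralog groups 1 to 4, 5 to 8 and 9 to 13. Hoxb stood at 39.4 and 40.9 in the parental and exon 2 knockout lines and between 64.6 and 71.0 in the other pair, while groups 9 to 13 made up most of Hoxa in every line.

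Which lines resembled each other was described on log2(RPKM + 1) over the 17 Hox genes with a mean RPKM of at least 1. Across these genes, Pearson's r was 0.964 between the parental and exon 2 knockout lines and 0.947 between the vector control and exon 3 knockout. The other 4 pairs gave 0.809 to 0.851. Over all 10871 genes with a mean RPKM of at least 1 the order differed, with the highest r of 0.965 between the knockouts. Genes within a library are not independent, and the r values of pairs share libraries and were not tested.

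Few Hox genes were at least 2-fold apart on the log2(RPKM + 1) scale. Between the parental line and the vector control, Hoxb2 and Hoxb9 differed (2 of 17, against 8.53% of all tested genes), and both differed between the parental line and the exon 3 knockout too (2 of 17, against 16.7%). No Hox gene differed 2-fold between the parental and exon 2 knockout lines (all genes 10.4%). Hoxa6 was lower in the exon 3 knockout than in the vector control (1 of 17, all genes 19.9%). Hoxb6 and Hoxb9 were lower in the exon 2 knockout than in the vector control (2 of 17, all genes 13.8%), and Hoxb9 was lower than in the exon 3 knockout (1 of 17, all genes 4.99%).

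Whether the line labelled 308 differed from the 3 labelled 307 was tested with limma on log2(RPKM + 1) over the 10871 genes, with the lone library assumed to vary like the others. None of the 17 Hox genes passed an adjusted p of 0.05 (limma, Benjamini-Hochberg), nor did any other gene (0% of those tested). At an unadjusted p of 0.05 limma called 1 of the 17 Hox genes and 174 of all genes, and a robust prior gave 0 adjusted calls as well. Hoxb9 was that gene. Its RPKM was 0.414 in the line labelled 308 and 5.17 ± 3.97 (SD, n = 3) in those labelled 307, a log2 difference of -1.85 (SE 0.758, 95% interval -3.46 to -0.23, adjusted p 0.99975 in limma). Hoxb9 did not stay at an unadjusted p under 0.05 in limma with no filter on mean RPKM. Nor did it without the exon 3 knockout, which leaves the exon 2 knockout against the 2 controls. An exact permutation test of 1 library against 3 gives a two-sided p of 0.25 at the smallest, so no single gene can pass 0.05 in it. Hoxb9 had a two-sided p of 0.5 in this permutation test. Its vector control value lay farther from the mean of the other lines than its 308 value did.

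All 7 tested Hoxb genes had a negative log2 difference between 308 and the mean of the libraries labelled 307, with a median of -0.47, as all 7 had after median ratio scaling and 6 after quantile normalization. Hoxb2 and Hoxb4 turned positive without the vector control, and 1 of 7 did without the exon 3 knockout. Both Hoxb2 and Hoxb4 were higher in 308 than in the parental line. The 10 tested Hoxa genes were divided, 5 lower and 5 higher, with a median of -0.01. Over all 17 the median was -0.21, beside -0.03 over all tested genes, and it turned to 0.04 among the 8 Hox genes with a mean RPKM of at least 5. It was -0.06 after quantile normalization and -0.33 without the exon 3 knockout.

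The 308 value lay below all 3 values labelled 307 for 8 of 17 genes against 19.3% of all tested genes, among them Hoxa5, Hoxa13, Hoxb3, Hoxb6, Hoxb7, Hoxb8 and Hoxb9. It lay above all 3 for Hoxa9 and Hoxa11 (2 of 17, against 19.0%). None was 2-fold apart from each of the 3 (all genes 0.745%). After Hoxb9, the difference of Hoxb6 was the next in size, at -0.68 (SE 0.588) from RPKM of 2.63 against 5.02 ± 1.77 (SD, n = 3), followed by Hoxa13 at -0.62 (SE 0.594) from 0.655 against 1.55 ± 0.296. On the other side, Hoxa9 differed by 0.54 (SE 0.520) and Hoxa11 by 0.46 (SE 0.480), from 16.6 against 11.3 ± 2.58 and from 25.9 against 18.6 ± 0.987. For each of these 4 genes the adjusted p in limma was 0.99975 and the 95% interval held 0.

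Several of the lower values were set by 1 or 2 of the lines labelled 307. Hoxb8 was 0.657 in 308 and 0.709 in the parental line, a difference of 0.04 on the log2 scale. Between 308 and the parental line the 7 Hoxb genes had a median difference of -0.19, against -0.69 from the vector control and -0.63 from the exon 3 knockout. Only Hoxa13 and Hoxb9 were on in the 3 lines labelled 307 and not in 308, where both were low. Hoxb13 was above 0 in the 3 lines labelled 307 (2, 27 and 4 reads) and listed at 0 in 308. The intervals of Hoxa13 in 308 (17 reads) and of Hoxb9 in the parental line (24 reads, 0.654 to 1.52) both reached across 1.

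**Figure D4:**
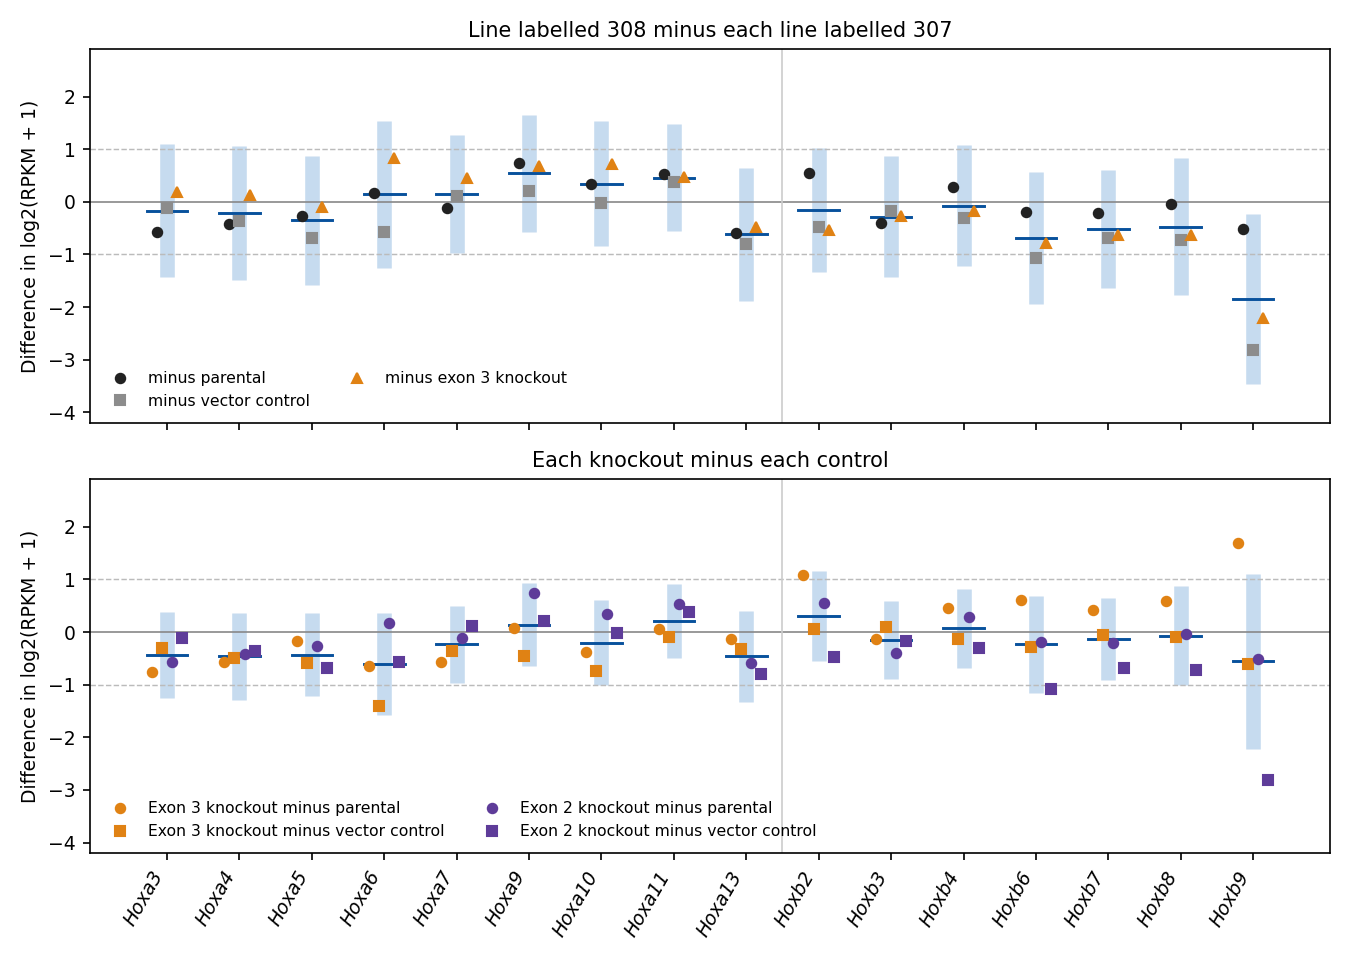
Differences in log2(RPKM + 1) of 16 tested Hox genes, between the line labelled 308 and each line labelled 307 (top) and between each knockout and each control (bottom). Points are single pairs of libraries, dark bars the limma estimates, light bars their 95% intervals and dashed lines 2-fold. In the top panel the points of Hoxb9 run from -0.52 to -2.81 and its interval is the only one there without 0, and in the bottom panel every interval holds 0.

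Between the 2 knockouts and the 2 controls none of the 17 Hox genes passed an adjusted p of 0.05, beside 0.0184% of all tested genes (2 of 10871). None had an unadjusted p under 0.05 either, against 2076 of all tested genes, and limma with a robust prior also called 0 of the 17. The smallest adjusted p was 0.463, for Hoxa6. Both knockouts lay below both controls for Hoxa3, Hoxa4, Hoxa5 and Hoxa13 (4 of 17, against 31.2% of all tested genes) and above both for none (all genes 21.9%), and none was 2-fold apart in every pair (all genes 2.0%). The mean RPKM of Hoxa3 was 3.17 ± 0.926 (SD, n = 2) in the controls and 2.05 ± 0.271 in the knockouts, a log2 difference of -0.44 (SE 0.372). That of Hoxa5 was 4.03 ± 1.02 and 2.70 ± 0.182, a difference of -0.43 (SE 0.360). The differences were -0.46 (SE 0.377) for Hoxa4 and -0.46 (SE 0.393) for Hoxa13. All 4 depended on the libraries or the scaling, with -0.21 for Hoxa3 without the parental line, -0.22 for Hoxa5 without the vector control and -0.23 for Hoxa13 without the exon 2 knockout. Quantile normalization gave -0.10, -0.20, -0.08 and -0.20 for Hoxa3, Hoxa4, Hoxa5 and Hoxa13. These 4 genes had a two-sided p of 0.333 in the exact permutation test, the smallest that 4 libraries in such groups allow.

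Of the 17 genes 13 were lower and 4 higher in the knockouts, with a median log2 difference of -0.20 beside -0.08 over all tested genes. After quantile normalization 6 were lower and 11 higher, and after a correction of the log2 levels for GC content and coding length 16 were lower, all 10 Hoxa genes included, and 1 higher. Median ratio scaling and quantile normalization moved the median of all genes by 0.10 and 0.12, and relative to all genes the Hox median was -0.13 as deposited, -0.13 and 0.07. After the correction for GC content and length the relative median was -0.44. In Hoxb the direction depended on which library was used. Hoxb9 had 4.98 ± 5.60 (SD, n = 2) in the controls and 2.98 ± 3.63 in the knockouts, with no order between the groups (log2 difference -0.56, SE 0.759). Without the parental line, which leaves 1 control beside knockouts at RPKM of 5.54 and 0.414, its difference was -1.71. It was 0.59 without the vector control and 0.55 without the exon 2 knockout.

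Genes for proteins that work with HOX proteins or keep their genes' state were active in these lines. The TALE homeodomain cofactors (PBX, MEIS and PKNOX proteins, which bind DNA together with HOX proteins) were all on in at least 1 line, 9 of 9, as were the 26 Polycomb and the 11 Trithorax genes listed. None of these passed an adjusted p of 0.05 in limma in either comparison. In the knockouts the median log2 difference was -0.28 for TALE, -0.22 for Polycomb and -0.23 for Trithorax genes, beside -0.08 for all tested genes. The TALE and Trithorax directions did not hold throughout. The TALE median was 0.02 after quantile normalization. The Trithorax median was 0.05 after the GC and length correction and 0.16 among genes with a mean RPKM of at least 5. The Polycomb median stayed negative in every setting, at -0.05 after quantile normalization. At an unadjusted p of 0.05 limma called 0 of 9, 7 of 26 and 3 of 11, against 19.1% of all tested genes. At least 2-fold apart in every pair were 2 of the 26 Polycomb and 1 of the 11 Trithorax genes, against 2.0% of all tested genes. They were Ring1, a Polycomb ubiquitin ligase (RPKM 11.1, 11.2, 27.6 and 23.4), Phc3, its partner (12.1, 10.51, 4.40 and 3.51), and Ash1l, a histone methyltransferase (13.96, 12.3, 3.88 and 4.71). The difference of Ash1l was -1.42 as deposited and -0.57 after the same correction. In 308 against 307 the medians of the 3 lists lay between -0.06 and 0.03. Without the exon 3 knockout, which leaves only controls labelled 307, these medians lay between -0.26 and -0.13.

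Retinoid genes, which turn on 3′ Hox genes in the embryo, were on for 11 of 16 in at least 1 line, with 0 called in either comparison. At an unadjusted p of 0.05 limma gave 1 of 10 between knockouts and controls, against 19.1% of all tested genes, and 0 of 10 between 308 and 307, against 1.60%. Among 38 other homeobox and T-box genes that mark position, 18 were on in at least 1 line and 9 were listed at 0 in all. None was called, and 4 and 2 of 15 had an unadjusted p under 0.05 in limma, against the same 19.1% and 1.60%. At least 2-fold apart in every pair was 1 of 15 in each comparison, against 2.0% and 0.745% of all tested genes. Prrx1, a limb and connective tissue gene, was at least 2-fold lower in the knockouts in every pair (56.0, 35.1, 10.3 and 10.3, log2 difference -2.004, SE 0.332, adjusted p 0.0731 in limma). Tbx15, a T-box gene of the trunk and limb skeleton, was at least 2-fold lower in 308 than in each line labelled 307 (25.02, 30.2, 13.5 and 4.87, log2 difference -1.96, SE 0.550, adjusted p 0.99975 in limma). Pitx1 and Tbx5, which mark hind limb and forelimb, were listed at 0 in all 4 lines.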

How the data were processed

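The members and the gene lists were chosen with earlier results of these data known. The authors deposited RPKM per gene in 1 column per line, with no log scale. Per the labels, a stranded total RNA kit was used, and the submitters' processing notes name CASAVA 1.8, GSNAP and GRCm38. The study's methods name a TruSeq RNA preparation kit for RNA-seq and do not mention strand there. The gene model and counting rule are not given in the sources used here. All 4 columns were matched to a sample by its label.

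RPKM ratios gave whole reads for 100% of 15405 genes above 0 (tolerance 0.0001 reads). The lengths that follow equalled an annotated coding length in 59.8% of genes (16 of 24 Hox genes), so read numbers rest on coding lengths from GENCODE M21 (20131 symbols matched directly, 840 through older symbols). Intervals and floors (3 reads) cover counting error only.

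Genes with mean RPKM of at least 1 (10871, including 17 Hox genes) were tested on log2(RPKM + 1), which understates changes of low genes, with limma 3.58.1 in R 4.3.3 with an intensity trend and Benjamini-Hochberg adjustment at 0.05. No covariate was used. limma was tested on simulated data. Every Hox gene at RPKM of at least 1 in some line is named, except 1 whose own values are not reported here (counts, sums and medians include it), and other genes where at least 2-fold apart in every pair or beside a cluster. Pitx1, Tbx5 and the cell type markers were named after their values were seen. Alternatives were other levels for on (0.5 and 2 RPKM, 10 reads), a pseudocount of 0.1, median ratio and quantile scaling, no filter, a filter at 5, no trend, a robust prior, 3-fold, a GC and length correction (99.1% of tested genes) and leaving out each library. Other steps used Python 3.11.15, numpy 2.4.6, pandas 2.3.3 and scipy 1.17.1, and figures matplotlib 3.10.9.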

Additional observations from a re-analysis of the deposited data

How the results depend on the processing

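The number of Hox genes on per line stayed within 1.5 times under every other level or scaling tried (11 to 20 genes). No Hox gene had an adjusted p under 0.05 in limma in either comparison under any setting that kept all 4 libraries.

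Between knockouts and controls, leaving out a library left 1 library in a group, so no calls are given for those fits. The count with both knockouts below both controls was 4 of 17. It was 1 after quantile normalization and 8 after the GC and length correction (all genes 24.2% in each). Under the filter at 5 RPKM it was 0 of 8 (all genes 28.3%). When a library was left out it ranged from 7 to 11 (all genes 40.8% to 47.3%). The count above both controls (0) was 1 after median ratio scaling (all genes 28.4%) and 1 after quantile normalization (all genes 27.7%). With no filter it was 1 of 24 (all genes 17.6%). It ranged from 0 to 4 when a library was left out (all genes 31.3% to 37.8%). With fewer libraries to separate, such counts rise by construction. The median log2 difference (-0.20) turned to 0.11 after quantile normalization, was -0.44 after the GC and length correction and ranged from -0.37 to -0.02 when a library was left out. The Hoxb9 difference (-0.56) ranged from -1.71 to 0.59.

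For 308 against 307, the count at least 2-fold lower (0) was 1 with a pseudocount of 0.1 and 1 against the exon 3 knockout alone, and ranged from 0 to 1 when a library was left out. The count above all 3 (2 of 17) was 4 after quantile normalization (all genes 21.3%) and 5 of 24 with no filter (all genes 18.2%). It was 7 against the exon 3 knockout alone, where the share of all genes was not computed. When a library was left out it ranged from 2 to 4 (all genes 24.5% to 31.3%). The count below all 3 (8 of 17) was 3 after quantile normalization (all genes 17.9%). It was 8 to 10 when a library was left out (all genes 24.1% to 40.8%). Under the filter at 5 RPKM it was 2 of 8 (all genes 17.2%). The median (-0.21) turned to 0.039 with that filter, was -0.06 after quantile normalization and ranged from -0.33 to -0.19 when a library was left out. Where construction does not show it, the cause was not tested.

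No paired analysis was possible because replicate numbers follow only the order of deposition. With 1 library per line, differences between lines and between preparations cannot be told apart, and low genes rest on few reads.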
